A study of Mus musculus with 22 samples.

Results

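Microglia of mice that had been exposed to Gulf War chemicals in early adulthood and then aged were compared with microglia of aged mice given vehicle in the same weeks, without an immune challenge. The members were chosen by the library labels, as every library of the exposed group given saline (GW-PBS, n = 4) and every library of its vehicle control given saline (Ctrl-PBS, n = 4), and make up 8 of the 22 libraries of the series. All genes were tested. The GW-PBS animals were male C57BL/6J mice injected intraperitoneally once a day for 10 days, from 10 weeks of age, with pyridostigmine bromide at 0.7 mg/kg and permethrin at 200 mg/kg. Pyridostigmine bromide blocks acetylcholinesterase, and permethrin is a pyrethroid insecticide that holds voltage-gated sodium channels open. The Ctrl-PBS animals were male C57BL/6J mice given the vehicle of these chemicals on the same schedule. Both groups were aged to 17.5 months and then received the vehicle of cannabidiol, daily for 28 days and once every 2 days for 2 more weeks, and a single injection of PBS 24 hours before the brain was taken. Where the comparison with lipopolysaccharide (LPS) is given, GW-LPS (n = 3) and Ctrl-LPS (n = 4) were treated alike except that 0.33 mg/kg LPS replaced the PBS. Cells were sorted from whole dissociated brain as live CD45mid, CD11b+ and CD11a- events, and poly(A) RNA was sequenced as stranded libraries. The comparison asks what an exposure in young adulthood left in the resting microglial transcriptome of an old mouse.

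Microglia are long-lived macrophages of the brain parenchyma that depend on signalling through the CSF1 receptor and TGF-beta, and under resting conditions they carry a typical set of surface receptors such as P2RY12, TMEM119 and CX3CR1. Near amyloid plaques, dying neurons or damaged myelin, and in part with age, mouse microglia take up what is called the disease-associated state. In that state genes of lipid handling, lysosomal proteolysis and phagocytosis are raised, with signalling through TREM2 and its adaptor TYROBP needed for its full form, and several homeostatic receptors are lowered. Interferon-responsive and cytokine-producing states are set apart from it by other gene sets.

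Each of the 8 libraries held between 31987884 and 37517783 counts. The homeostatic microglial genes were measured in every library, at a summed level of 97490 to 131400 CPM (counts scaled to a common library size) in GW-PBS and 92960 to 117600 CPM in Ctrl-PBS, which fits the label of microglia. The libraries did not separate by exposure in their correlations or on the first and second principal components. The correlation of log2 CPM between a GW-PBS and a Ctrl-PBS library (median 0.959, 16 pairs) was like that within GW-PBS (median 0.958, 6 pairs) and within Ctrl-PBS (median 0.956, 6 pairs), given as a description. The first principal component (27.8% of the variance) set Ctrl-PBS replicate 3 apart and the second (20.3%) GW-PBS replicate 1. On the third (13.9%) the groups did not overlap. GW-PBS libraries lay there at -31.2 to -16 and Ctrl-PBS libraries at -5.40 to 71.5, with Ctrl-PBS replicate 2 farthest out. This split was not tested. Ctrl-PBS replicate 3 carried neutrophil markers at a summed 30110 CPM, against 507 to 2181 CPM in GW-PBS and 546 to 694 CPM in the other Ctrl-PBS libraries. GW-PBS replicate 1 carried cytosolic ribosomal protein transcripts at 10990 CPM, against 5564 to 6875 CPM in the other GW-PBS libraries and 5418 to 7230 CPM in Ctrl-PBS. The labels do not say that each library came from 1 mouse, so a p-value here measures the spread between libraries. In bulk RNA, fewer cells of a type and less RNA per cell cannot be told apart.

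No gene passed the test for a difference between GW-PBS and Ctrl-PBS. Of 16554 genes tested with edgeR's quasi-likelihood test, 0 had an adjusted p under 0.05 (0%, smallest adjusted p = 1), and DESeq2 and limma voom likewise called 0. At an unadjusted p under 0.05, 621 genes (3.75%) stood out in edgeR, 253 with a higher level in GW-PBS (1.53%) and 368 with a lower one (2.22%). The median log2 fold change of all genes, GW-PBS over Ctrl-PBS, was 0.02. In 342 genes (2.07%) the libraries of the groups did not overlap, 182 with all GW-PBS libraries higher (1.1%) and 160 with all lower (0.967%). The count of 621 was 1068 without GW-PBS replicate 2, and that of 342 was 600 to 1002 when any 1 of the 8 libraries was left out, since fewer libraries overlap less often.

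The data were precise enough to bound the difference for most well expressed genes. Among the 1717 genes at 100 CPM or over, the 95% interval of the fold change left out a 2-fold difference in either direction for 97.55%, and the interval reached a median of 0.31 to either side on the log2 scale. Of the 6585 genes between 10 and 100 CPM, 95.14% had an interval that left out a 2-fold difference. Of the 4304 genes under 1 CPM only 1.88% did, so for most of those genes a 2-fold difference could not be left out. Over all genes tested the interval left out a 2-fold difference for 10207 and a 1.5-fold difference for 6355.

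**Figure D1:**
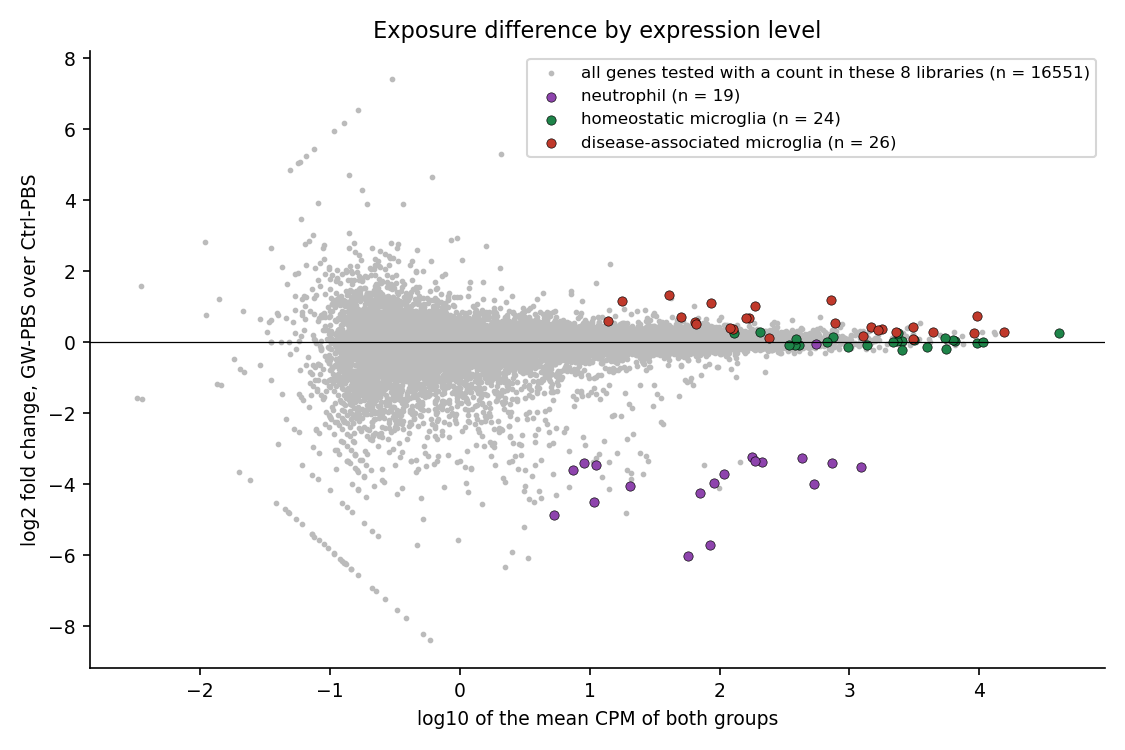
Log2 fold change of each gene, GW-PBS over Ctrl-PBS, against the log10 of its mean CPM over both groups, with 3 gene lists in colour. The 26 disease-associated genes lie above 0, the 24 homeostatic genes lie between -0.20 and 0.30, and the neutrophil markers lie below 0, with a median of -3.59 that was 3.98 without Ctrl-PBS replicate 3.

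All 26 genes of the disease-associated list had a higher mean in GW-PBS than in Ctrl-PBS, and none passed the test. Their median log2 fold change was 0.48, with a range of 0.10 to 1.33, beside 0.02 over all genes tested. At an unadjusted p under 0.05, 14 of the 26 were higher in GW-PBS and 0 lower, beside 1.53% of all genes, and in 5 of 26 all GW-PBS libraries lay above all Ctrl-PBS libraries, beside 1.1% of all genes. The summed level of the list was 64170, 54380, 76790 and 53240 CPM in GW-PBS replicates 1 to 4, against 47990, 49330, 52520 and 49530 CPM in Ctrl-PBS replicates 1 to 4. The lowest GW-PBS sum thus lay above the highest Ctrl-PBS sum, by a small margin in replicates 2 and 4. The list was chosen with earlier results of these libraries known, so its direction is not independent evidence of a change.

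The size of the difference varied greatly within GW-PBS. Set against the Ctrl-PBS mean of each gene, the median log2 deviation over the 26 genes was 0.68 in GW-PBS replicate 1, 0.22 in replicate 2, 0.87 in replicate 3 and 0.11 in replicate 4. The same median was -0.01, -0.16, 0.19 and 0.02 in Ctrl-PBS replicates 1 to 4, so GW-PBS replicates 2 and 4 lay within or close to the spread of the controls. GW-PBS replicate 3 was the highest of the 8 libraries in 15 of the 26 genes, GW-PBS replicate 1 in 9 and Ctrl-PBS replicate 3 in 2. Without GW-PBS replicate 3 the count at an unadjusted p under 0.05 was 5 of 26 and the median log2 fold change 0.30. Without GW-PBS replicate 1 they were 14 and 0.35. In these fits 247 and 190 of all genes tested were higher in GW-PBS at that p, beside 253 with all libraries. Without Ctrl-PBS replicate 3, 18 genes had an unadjusted p under 0.05 and 12 had groups that did not overlap. Over all genes tested, 274 were then higher in GW-PBS at that p, beside 253 with all libraries. All GW-PBS libraries lay higher in 355 genes, beside 182, since fewer libraries overlap less often. Erythroid markers were also higher in the 2 GW-PBS libraries with the higher list levels, with a summed 1595, 291, 1391 and 273 CPM in GW-PBS replicates 1 to 4, against 296, 1365, 636 and 521 CPM in Ctrl-PBS replicates 1 to 4. Ctrl-PBS replicate 2, with its 1365 CPM of these markers, had the lowest disease-associated median, and the part of these markers in the result was not tested. With the neutrophil marker sum as a covariate 19 of the 26 genes were higher in GW-PBS at an unadjusted p under 0.05, and with the ribosomal protein sum 17. Over all genes tested, 352 and 428 were higher at that p under these covariates, beside 253 with no covariate. Under the ribosomal covariate the median log2 fold change of the list was 0.32, with 24 genes above 0 and 2 below.

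**Figure D2:**
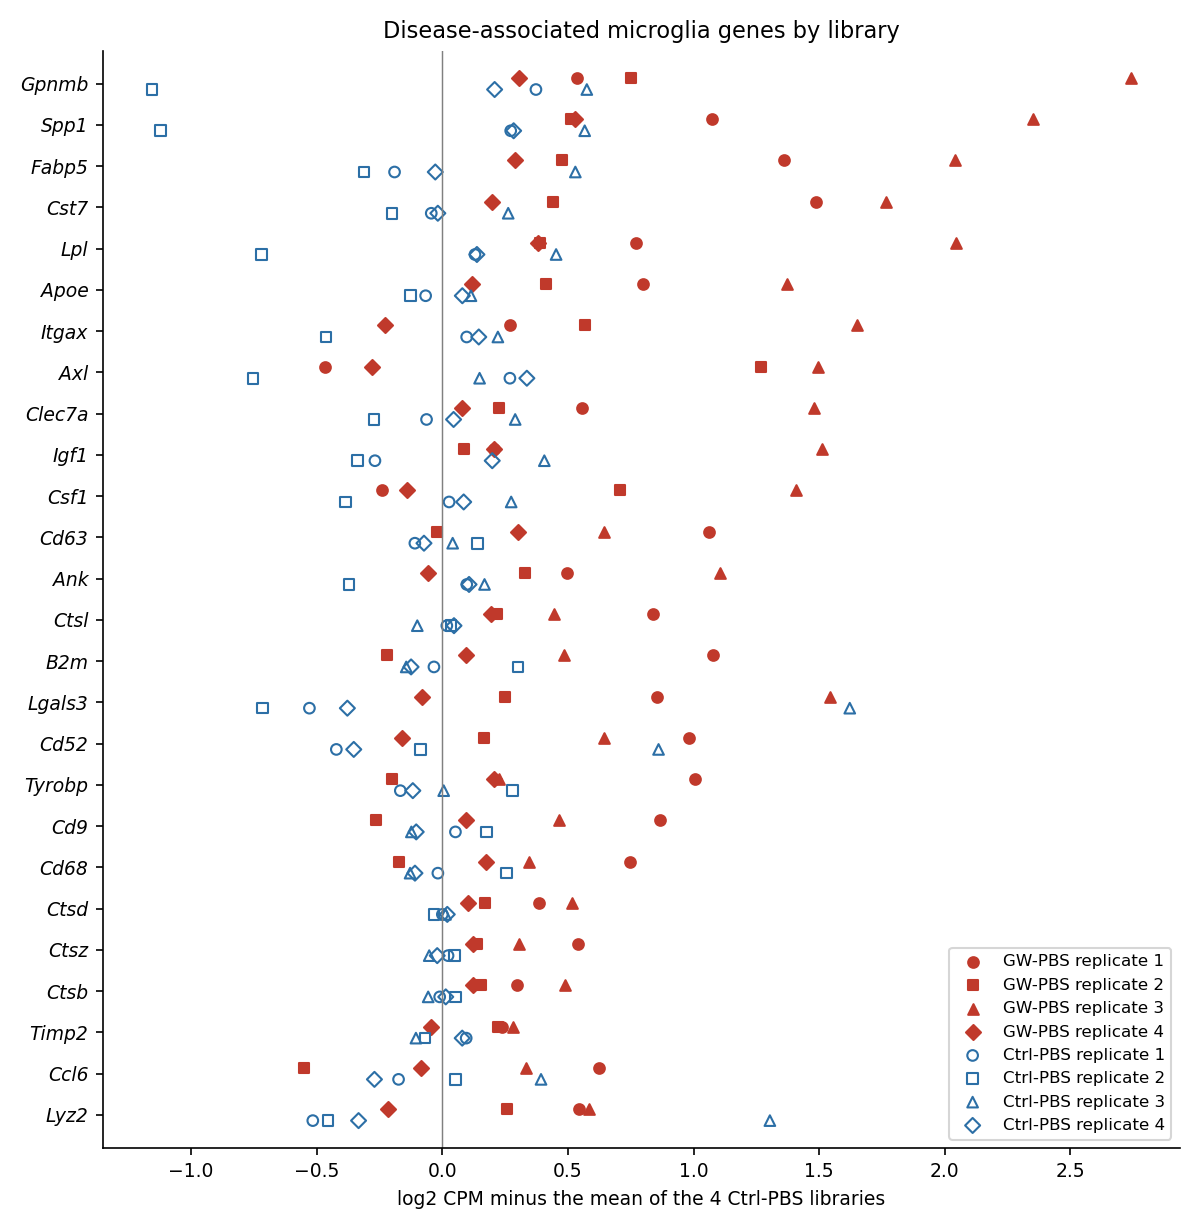
Log2 CPM of the 26 disease-associated genes in each library, as the difference from the mean of the 4 Ctrl-PBS libraries, genes ordered by log2 fold change. Filled red symbols are GW-PBS and open blue symbols Ctrl-PBS, with 1 shape per replicate number. GW-PBS replicates 3 and 1 supply most of the rightmost points, and replicate 4 lies close to 0 in most genes.

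The genes of lipid handling had large fold changes, and all 3 were among the 14. Apoe, the main apolipoprotein of the brain, which carries cholesterol and phospholipid between cells, lies on chromosome 7 from 19696109 to 19699188 (GRCm38). Apoe had 12450, 9510, 18520 and 7769 CPM in GW-PBS replicates 1 to 4, against 6832, 6549, 7742 and 7560 CPM in Ctrl-PBS replicates 1 to 4. Every GW-PBS library lay above every Ctrl-PBS library, replicate 4 by a narrow margin over the highest control. The log2 fold change of Apoe was 0.75 ± 0.26 (SE, 95% interval 0.21 to 1.29), and 0.47 without GW-PBS replicate 3. Lpl, the lipoprotein lipase that frees fatty acids from triglyceride, had 201, 155, 487 and 154 CPM in GW-PBS, against 129, 71.6, 162 and 130 CPM in Ctrl-PBS. GW-PBS replicate 3 stood far above the others, GW-PBS replicates 2 and 4 lay below the highest control, and the log2 fold change of 1.02 ± 0.33 was 0.47 without replicate 3. Fabp5, a cytosolic fatty acid carrier, had 27.3, 14.8, 43.8 and 12.99 CPM in GW-PBS, against 9.32, 8.57, 15.4 and 10.4 CPM in Ctrl-PBS. Its groups overlapped only through Ctrl-PBS replicate 3, and the log2 fold change of 1.18 ± 0.35 was 0.75 without GW-PBS replicate 3.

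Cathepsins, the lysosomal proteases, made up 4 of the 5 genes whose groups did not overlap, with small differences and little spread among the controls. Ctsd, the aspartyl protease cathepsin D, had 18150, 15620, 19900 and 14910 CPM in GW-PBS replicates 1 to 4, against 13900, 13590, 14020 and 14090 CPM in Ctrl-PBS. Ctsb, the cysteine protease cathepsin B, had 10200, 9223, 11640 and 9024 CPM in GW-PBS, against 8235, 8605, 7978 and 8374 CPM in Ctrl-PBS. Ctsl, cathepsin L, had 2211, 1441, 1684 and 1414 CPM in GW-PBS, against 1253, 1268, 1155 and 1278 CPM in Ctrl-PBS. For these genes even the lowest GW-PBS library, replicate 4, lay above the highest control. The log2 fold changes were 0.30 ± 0.12 for Ctsd, 0.27 ± 0.09 for Ctsb and 0.45 ± 0.15 for Ctsl. Ctsz, cathepsin Z, had 5739, 4337, 4874 and 4295 CPM in GW-PBS, against 4008, 4083, 3805 and 3890 CPM in Ctrl-PBS, again without overlap. Cst7 encodes cystatin F, an inhibitor of lysosomal cysteine cathepsins, and lies on chromosome 2 from 150570415 to 150578944. Cst7 had 151, 73.3, 184 and 62.0 CPM in GW-PBS, against 52.4, 47.0, 64.8 and 53.4 CPM in Ctrl-PBS. GW-PBS replicates 1 and 3 held more than the other libraries, replicate 4 lay below the highest control, and the log2 fold change was 1.11 ± 0.32 (95% interval 0.44 to 1.78).

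The promoters of 3 of these genes are shown because each holds a match to a motif searched for. They are from RefSeq on GRCm38.p6, 250 bases before to 50 after the start, 5′ to 3′ on the gene's strand, with matches in capitals. CACGTG is the E-box bound by TFEB and related factors of lysosomal genes. TGANTCA is a looser form of the core bound by AP-1, which has C or G in the middle. The match in Cst7, TGATTCA, is of the looser form only. Both motifs searched for read the same on either strand and were chosen after the values were seen. The windows are chr7:142387778-142388077 (minus strand) for Ctsd, chr13:64370471-64370770 (minus strand) for Ctsl and chr2:150570165-150570464 (plus strand) for Cst7.
Ctsd: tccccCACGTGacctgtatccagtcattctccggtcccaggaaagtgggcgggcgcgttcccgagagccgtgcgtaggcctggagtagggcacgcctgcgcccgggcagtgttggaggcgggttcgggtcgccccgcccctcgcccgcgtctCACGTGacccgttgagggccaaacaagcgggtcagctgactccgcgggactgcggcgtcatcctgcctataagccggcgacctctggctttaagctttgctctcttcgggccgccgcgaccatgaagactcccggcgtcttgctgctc
Ctsl: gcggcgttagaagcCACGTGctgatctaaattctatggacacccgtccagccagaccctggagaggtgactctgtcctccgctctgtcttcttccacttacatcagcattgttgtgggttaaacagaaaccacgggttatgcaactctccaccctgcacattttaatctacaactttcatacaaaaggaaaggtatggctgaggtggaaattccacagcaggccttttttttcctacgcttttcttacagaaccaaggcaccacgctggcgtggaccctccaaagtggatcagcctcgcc
Cst7: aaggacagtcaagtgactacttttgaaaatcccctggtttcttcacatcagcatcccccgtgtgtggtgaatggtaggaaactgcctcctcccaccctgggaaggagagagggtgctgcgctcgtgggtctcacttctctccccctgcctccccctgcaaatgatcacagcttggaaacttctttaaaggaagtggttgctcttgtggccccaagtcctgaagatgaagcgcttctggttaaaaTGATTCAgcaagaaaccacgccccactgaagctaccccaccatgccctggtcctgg
A promoter was matched for 21 of the 26 disease-associated genes. CACGTG was found in 2 of the 21 and in 11.5% of the 11307 tested genes with a promoter. Of 32851 single mouse promoters of this length 7.15% held it. TGANTCA was found in 5 of the 21 (Cd68, Cst7, Gpnmb, Igf1 and Itgax), in 6.51% of those tested genes and in 7.81% of all promoters. A gene was counted once, by a match in any of its promoters, so shares of genes and of promoters are in different units. A match describes the letters only.

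The receptors, secreted factors and other membrane proteins of the list had a smaller share of genes at an unadjusted p under 0.05. Among the 4 receptors and adaptors the log2 fold change ran from 0.37 to 0.72, with 2 at an unadjusted p under 0.05, and among the 7 secreted factors from 0.10 to 1.21, with 1. Among the 7 other membrane proteins it ran from 0.30 to 1.33, with 3. Over all genes 1.53% were higher at that p. The classes were assigned from general knowledge within a list chosen with earlier results known, so their shares only describe. Clec7a, the beta-glucan receptor dectin-1, had 178, 142, 338 and 128 CPM in GW-PBS, against 116, 101, 148 and 125 CPM in Ctrl-PBS. Itgax, the integrin subunit CD11c, had 45.1, 55.5, 118 and 31.98 CPM in GW-PBS, against 40.02, 27.1, 43.6 and 41.4 CPM in Ctrl-PBS. In both genes GW-PBS replicate 3 was the highest library by far and replicate 4 lay within the controls. Spp1, the secreted matrix protein osteopontin, had 836, 567, 2025 and 572 CPM in GW-PBS, against 480, 182, 588 and 483 CPM in Ctrl-PBS, a log2 fold change of 1.21 ± 0.42. Gpnmb, a lysosomal and surface glycoprotein, had 30.5, 35.4, 140 and 25.9 CPM in GW-PBS, against 27.2, 9.43, 31.3 and 24.3 CPM in Ctrl-PBS, with a log2 fold change of 1.33 ± 0.57. In both, GW-PBS replicate 3 was the highest library and Ctrl-PBS replicate 2 the lowest. Cd63, a tetraspanin of late endosomes, had 1301, 615, 972 and 767 CPM in GW-PBS, against 578, 687, 641 and 592 CPM in Ctrl-PBS. There GW-PBS replicate 1 was the highest and replicate 2 lay within the controls.

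Homeostatic microglial genes lay near the median of all genes. Of the 24 genes, 0 had an unadjusted p under 0.05 in either direction. Their median log2 fold change was 0.02, the range ran from -0.20 to 0.30, and the 95% interval left out a 2-fold difference for all 24 and a 1.5-fold difference for 15. P2ry12, the purinergic receptor that guides process extension toward injury, had 5305, 4010, 5196 and 5958 CPM in GW-PBS, against 6565, 6672, 4582 and 5688 CPM in Ctrl-PBS. The groups overlapped, and the log2 fold change was -0.20 ± 0.19 (95% interval -0.59 to 0.19), or -0.31 without Ctrl-PBS replicate 3. Tmem119, a microglial surface protein, had 6629, 6595, 5884 and 6664 CPM in GW-PBS, against 7027, 5869, 5280 and 6212 CPM in Ctrl-PBS. Cx3cr1, the fractalkine receptor, had 3820, 3820, 3814 and 3785 CPM in GW-PBS, against 4782, 3971, 3484 and 4328 CPM in Ctrl-PBS. Both overlapped, with log2 fold changes of 0.08 ± 0.11 and -0.12 ± 0.14. Trem2, the lipid-sensing receptor upstream of the disease-associated state, had 3623, 1993, 2377 and 2340 CPM in GW-PBS, against 2159, 2460, 1913 and 2105 CPM in Ctrl-PBS. Its log2 fold change of 0.26 ± 0.18 was 0.05 without GW-PBS replicate 1.

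**Figure D3:**
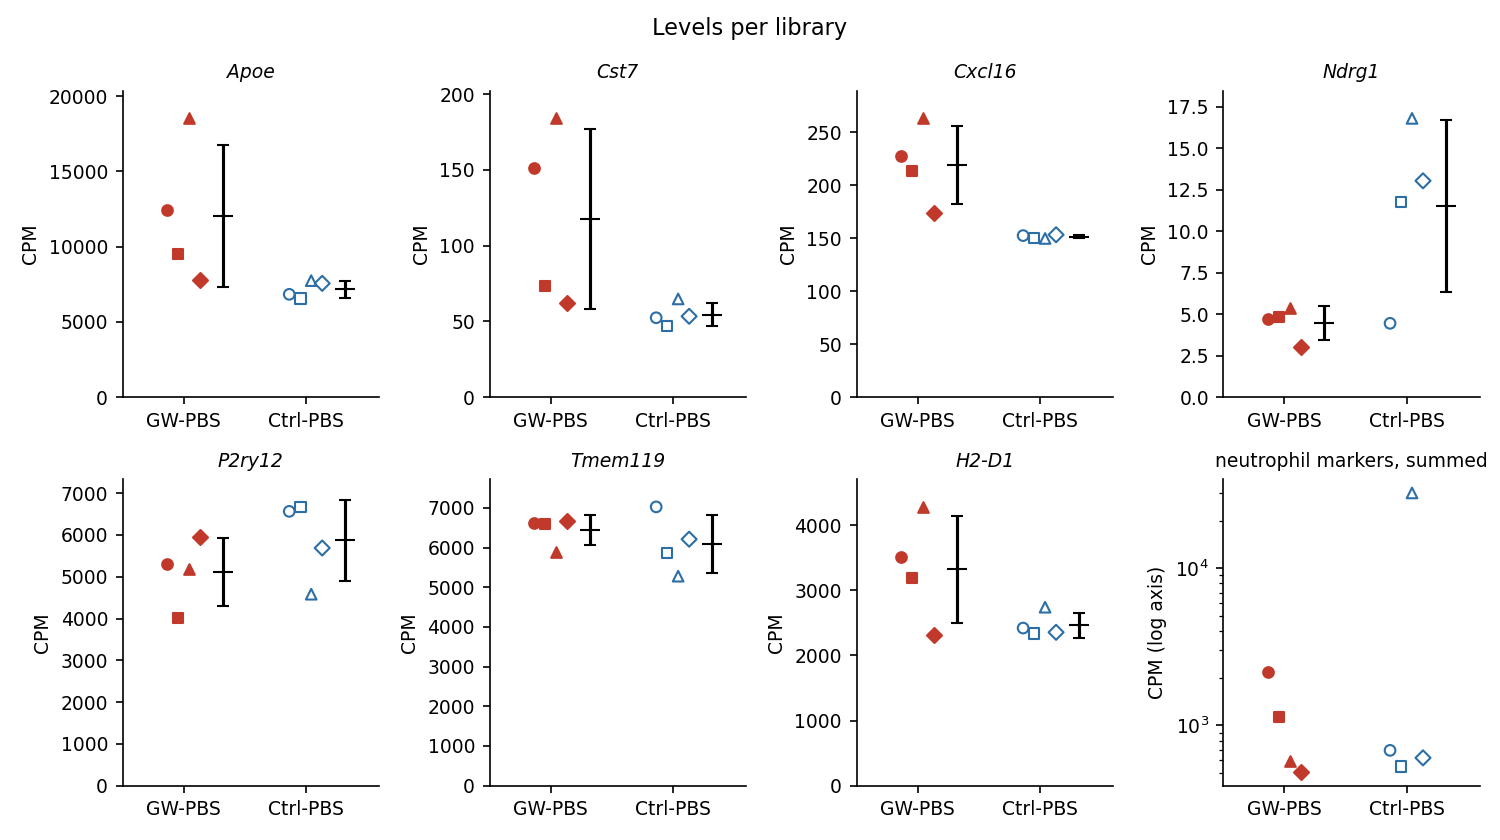
CPM of 7 genes and the summed CPM of the neutrophil markers in each library, with GW-PBS left and Ctrl-PBS right and 1 symbol shape per replicate number. Black bars give mean and SD of the 4 libraries (none for the marker sum, on a log axis). Apoe and Cxcl16 do not overlap between groups, Cst7, Ndrg1, P2ry12, Tmem119 and H2-D1 do, and Ctrl-PBS replicate 3 holds the marker sum of 30110 CPM.

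The cytokine and NF-kB list had a median log2 fold change of 0.13 that depended on single libraries. It was 0.41 without Ctrl-PBS replicate 3, 0.41 without the 3 neutrophil-rich libraries of the series (Ctrl-PBS replicate 3, GW-PBS replicate 1 and a Ctrl-LPS library) and 0.04 without GW-PBS replicate 2. Of its 39 genes 3 had an unadjusted p under 0.05 with a higher level in GW-PBS and 0 with a lower one, beside 1.53% and 2.22% of all genes. The count of higher genes was 4 without Ctrl-PBS replicate 3 and 9 without the neutrophil-rich libraries, beside 274 and 297 over all genes. The libraries so named differ greatly, with neutrophil markers at 2181 CPM in GW-PBS replicate 1 and 30110 CPM in Ctrl-PBS replicate 3. GW-PBS replicate 1 is also the library high in ribosomal protein transcripts. The part of neutrophils in values from the fit without these libraries was not tested. Cxcl16, a membrane-bound chemokine and scavenger receptor, had 227, 213, 263 and 174 CPM in GW-PBS, against 153, 150.4, 149.9 and 153 CPM in Ctrl-PBS. No GW-PBS library reached down to the controls, which lay within a few CPM of each other, and the log2 fold change was 0.53 ± 0.19. Cxcl13, a B-cell attracting chemokine, had 14.7, 63.2, 12.1 and 4.00 CPM in GW-PBS, against 3.41, 3.74, 4.85 and 8.33 CPM in Ctrl-PBS. Its log2 fold change of 2.21 ± 0.66 was 1.01 without GW-PBS replicate 2. Ccl4, a chemokine made early in microglial activation, had 1128, 599.7, 652 and 569.7 CPM in GW-PBS, against 402, 551, 499 and 352 CPM in Ctrl-PBS, without overlap. Il1b, which encodes interleukin-1 beta, had 114, 171, 107 and 50.01 CPM in GW-PBS, against 43.8, 62.4, 300.4 and 66.9 CPM in Ctrl-PBS. The high Il1b control was replicate 3, the library rich in neutrophil markers, and the log2 fold change was -0.10, or 0.92 without it.

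Interferon-responsive genes gave no counts past the threshold. Of 36 genes, 0 had an unadjusted p under 0.05, the median log2 fold change was 0.09, and for 30 the 95% interval left out a 2-fold difference. Ifit3, an interferon-induced inhibitor of viral translation, had 31.5, 53.7, 43.9 and 36.2 CPM in GW-PBS, against 49.98, 46.4, 30.4 and 38.1 CPM in Ctrl-PBS, and the groups overlapped fully. Among the 23 antigen presentation genes 4 had an unadjusted p under 0.05 with a higher level in GW-PBS, all of them class I or class I-like genes (H2-M3, H2-D1, H2-K1 and H2-Q7), beside 1.53% of all genes. The median log2 fold change of the list was 0.20, or 0.08 without GW-PBS replicate 1. H2-D1, a classical class I heavy chain, had 3505, 3182, 4279 and 2307 CPM in GW-PBS, against 2419, 2333, 2739 and 2354 CPM in Ctrl-PBS. H2-K1, another, had 1161, 906, 1332 and 725 CPM in GW-PBS, against 722, 745, 741 and 696 CPM in Ctrl-PBS. In both, GW-PBS replicates 1 to 3 lay above every control. Replicate 4 lay below every control for H2-D1 and among them for H2-K1. The log2 fold changes were 0.43 ± 0.17 for H2-D1, or 0.28 without GW-PBS replicate 3, and 0.51 ± 0.21 for H2-K1, and reads of these near-identical genes may have been split between them. Of 15 complement genes 1 had an unadjusted p under 0.05, the C5a receptor gene C5ar2, at a log2 fold change of -0.43 ± 0.20.

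**Figure D4:**
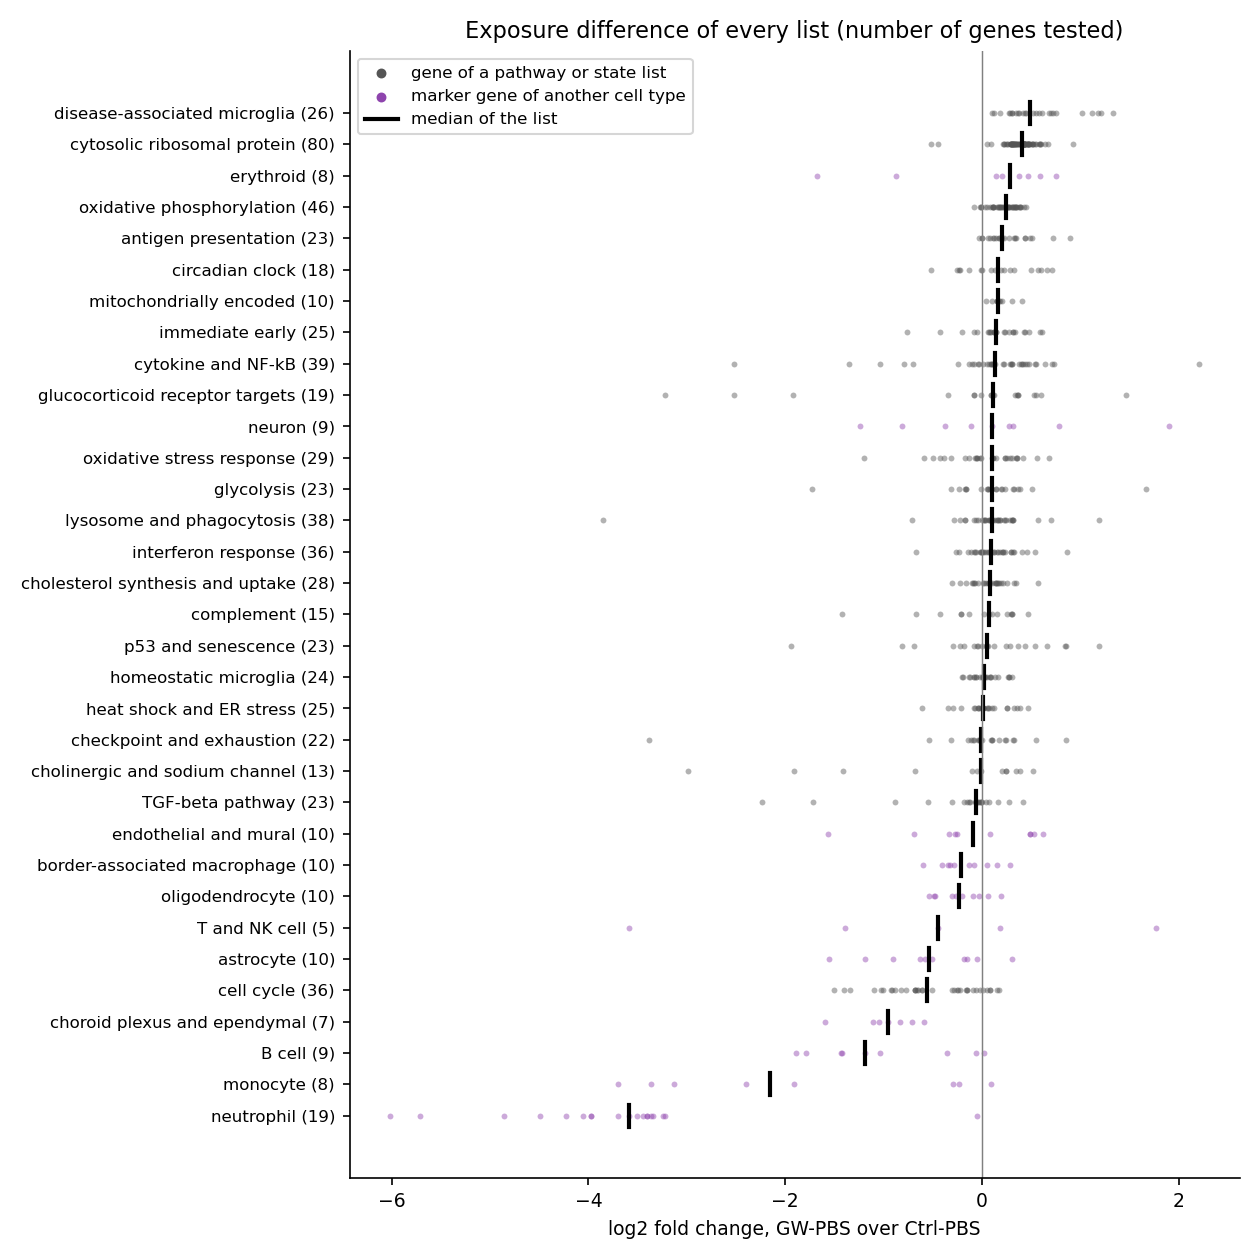
Log2 fold change, GW-PBS over Ctrl-PBS, of each tested gene (points) of every list, with the list's median as a black bar and lists ordered by median. The disease-associated list has the highest median, 0.48, and the neutrophil list the lowest, -3.59, or 3.98 without Ctrl-PBS replicate 3.

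Several groups moved with a single library. Of 80 cytosolic ribosomal protein genes, 78 had a log2 fold change above 0 with 0 at an unadjusted p under 0.05, and the median of 0.40 was 0.04 without GW-PBS replicate 1. The oxidative phosphorylation list behaved alike, with a median of 0.24 over 46 genes, and -0.02 without that library. None of the 10 mitochondrially encoded genes had an unadjusted p under 0.05, and their median of 0.16 was -0.23 without GW-PBS replicate 1. In the cell cycle list 30 of 36 genes lay below 0, with a median of -0.56 that became 0.31 without Ctrl-PBS replicate 3. Ccnb1, the mitotic cyclin B1, had 1.95, 3.58, 3.92 and 1.596 CPM in GW-PBS, against 5.15, 1.97, 18.6 and 3.55 CPM in Ctrl-PBS. Slc2a3, a glucose transporter, had 5.79, 12.5, 9.01 and 9.66 CPM in GW-PBS, against 6.85, 9.30, 97.5 and 9.23 CPM in Ctrl-PBS. Both genes were high in Ctrl-PBS replicate 3 alone. Fth1, the ferritin heavy chain that stores iron, had 5871, 3027, 4584 and 3248 CPM in GW-PBS, against 2533, 3200, 2941 and 2733 CPM in Ctrl-PBS. GW-PBS replicates 1 and 3 were the high ones, and the log2 fold change of 0.55 ± 0.24 was 0.34 without GW-PBS replicate 1 and 0.30 under the ribosomal covariate. Fth1 and ribosomal protein genes have processed pseudogenes, which makes their share of the reads uncertain.

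In the remaining lists between 0 and 3 genes had an unadjusted p under 0.05 in either direction, beside 1.53% of all genes higher in GW-PBS and 2.22% lower. Of 22 genes of immune checkpoints and exhaustion, 1 had a higher level in GW-PBS by that measure (Cd244a, log2 fold change 0.85 ± 0.37) and 1 a lower one (Nt5e, at under 2 CPM in both groups on average), and the median was -0.01. Of 38 lysosome and phagocytosis genes 2 were higher (Ctsh and Gla) and 1 lower (Marco, a scavenger receptor near 0 CPM in every library), with a median of 0.10. The p53 and senescence list had 3 of 23 higher and 1 lower, the oxidative stress list 2 of 29 higher and 1 lower, the glycolysis list 2 of 23 higher and 1 lower, and the heat shock and ER stress list 2 of 25 higher and 0 lower. The cholesterol (28 genes), immediate early (25), TGF-beta (23) and circadian (18) lists had 0 in either direction, with medians of 0.08, 0.14, -0.06 and 0.16. The immediate early median was 0.35 without Ctrl-PBS replicate 3 and 0.04 without Ctrl-PBS replicate 1. In the fit without Ctrl-PBS replicate 3, 3 genes of that list had an unadjusted p under 0.05. Over all genes that fit had 274 higher and 205 lower in GW-PBS at that p.

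Genes of cholinergic signalling, voltage-gated sodium channels and related esterases mostly fell under the count filter in these cells. Of 41 symbols listed, among which Nacho and Tmem35a name the same gene, 13 passed the filter on low counts. Of these 13 genes, 0 had an unadjusted p under 0.05. The median log2 fold change was -0.01. Ache, which encodes acetylcholinesterase, the target of pyridostigmine, had 17.5, 17.4, 18.9 and 15.2 CPM in GW-PBS, against 18.0, 19.6, 15.6 and 16.5 CPM in Ctrl-PBS. The groups overlapped fully, and the 95% interval of the log2 fold change, -0.01 ± 0.23, ran from -0.49 to 0.46. Sgk1, a kinase induced by glucocorticoids, had 946, 799.9, 767 and 754 CPM in GW-PBS, against 678, 633, 636 and 638 CPM in Ctrl-PBS. Its log2 fold change was 0.34 ± 0.16, and its groups did not overlap, as in 1 of 19 glucocorticoid receptor targets and 1.1% of all genes. Of the 19 targets 2 were higher at an unadjusted p under 0.05, Sgk1 and Ddit4, beside 1.53% of all genes. The log2 fold change of Ddit4, 1.46, was 0.50 without GW-PBS replicate 4. Bnip3, a mitophagy receptor of the glycolysis and hypoxia list, had 61.5, 48.1, 68.5 and 55.8 CPM in GW-PBS, against 42.3, 45.03, 43.9 and 47.5 CPM in Ctrl-PBS, also without overlap. Its log2 fold change was 0.39 ± 0.16.

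Of all genes at 5 CPM or over in the higher group, predicted genes and pseudogenes aside, Ndrg1 had the smallest p, with a lower level in GW-PBS (edgeR, unadjusted p = 0.000281, adjusted p = 1). Ndrg1, a hypoxia- and stress-responsive gene that oligodendrocytes also express strongly, lies on chromosome 15 from 66929318 to 66969640. Ndrg1 had 4.68, 4.82, 5.40 and 3.02 CPM in GW-PBS, against 4.45, 11.8, 16.8 and 13.03 CPM in Ctrl-PBS. Ctrl-PBS replicate 1 lay within the GW-PBS range, and the log2 fold change was -1.36 ± 0.31. Ptgds, a prostaglandin D synthase made in large amounts by meninges, choroid plexus and oligodendrocytes, had 18.2, 8.84, 12.9 and 9.49 CPM in GW-PBS, against 13.1, 38.5, 15.4 and 165 CPM in Ctrl-PBS. Its log2 fold change of -2.23 was -0.85 without Ctrl-PBS replicate 4. Oligodendrocyte markers summed to 397, 358, 484 and 296 CPM in GW-PBS replicates 1 to 4, against 424, 628, 435 and 393 CPM in Ctrl-PBS, and choroid plexus markers to 27.5 to 503 CPM in GW-PBS, against 54.2 to 639 CPM in Ctrl-PBS. Their part in the Ndrg1 and Ptgds values was not tested. Tiparp, an ADP-ribosyltransferase induced by the aryl hydrocarbon receptor, had 7.68, 16.9, 16.3 and 11.1 CPM in GW-PBS, against 17.7, 17.3, 28.3 and 22.4 CPM in Ctrl-PBS. Eif4e3, a cap-binding translation factor, had 26.6, 25.8, 23.02 and 26.5 CPM in GW-PBS, against 31.5, 28.8, 35.2 and 30.95 CPM in Ctrl-PBS. For both genes every GW-PBS library lay below every Ctrl-PBS library. The log2 fold changes were -0.72 ± 0.23 for Tiparp, which was -0.38 when the 3 neutrophil-rich libraries of the series were left out, and -0.31 ± 0.11 for Eif4e3. Clu, a secreted chaperone that astrocytes make in large amounts, had 17.3, 10.9, 21.0 and 26.6 CPM in GW-PBS, against 25.95, 57.9, 43.3 and 45.7 CPM in Ctrl-PBS. The groups overlapped only between GW-PBS replicate 4 and Ctrl-PBS replicate 1, and the log2 fold change was -1.19 ± 0.40. Astrocyte markers, of which Clu is 1, summed to 206, 239, 264 and 284 CPM in GW-PBS, against 240, 292, 253 and 277 CPM in Ctrl-PBS. Most of that sum was Slc1a3, at a mean of 193 CPM in GW-PBS and 157 CPM in Ctrl-PBS. Of the 10 astrocyte markers 1 had a log2 fold change above 0, and their median was -0.54. At an unadjusted p under 0.05, 2 were lower in GW-PBS, beside 2.22% of all genes. The part of astrocytes in the Clu values was not tested. Of the other genes at this end, Atp2a3, Ncam1, Cpne2, Palm and Rflnb were high in Ctrl-PBS replicate 3, and their log2 fold changes of -4.06 to -1.49 lay between -0.65 and -0.08 without it. Igha, the immunoglobulin A heavy chain, was measured at 0 to 0.210 CPM in GW-PBS, against 12.95, 0, 13.5 and 0 CPM in Ctrl-PBS. Sept6, a septin of the cytoskeleton, had a log2 fold change of -0.43 ± 0.14, or -0.23 without the neutrophil-rich libraries.

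Among the genes with a higher level in GW-PBS, Rsph3a had the smallest p (edgeR, unadjusted p = 0.00111, adjusted p = 1). Rsph3a encodes a radial spoke protein of cilia and has a close paralog, Rsph3b, so its reads may be shared. Rsph3a had 17.6, 11.4, 14.2 and 9.21 CPM in GW-PBS, against 8.68, 8.54, 8.48 and 6.57 CPM in Ctrl-PBS, with no overlap and a log2 fold change of 0.70 ± 0.18. Chd8, a chromatin remodeller, had 18.2, 15.3, 14.9 and 16.2 CPM in GW-PBS, against 10.9, 14.7, 12.3 and 11.9 CPM in Ctrl-PBS. Wdr92, a chaperone cofactor, had 21.8, 19.6, 17.7 and 19.8 CPM in GW-PBS, against 17.2, 13.1, 14.7 and 16.8 CPM in Ctrl-PBS. Neither gene overlapped between groups, and the log2 fold changes were 0.37 ± 0.12 for Chd8 and 0.35 ± 0.11 for Wdr92. The other genes of this end were Rai14, Cxcl13, Fam20c, Rad51b, Tefm and Ubac1, with log2 fold changes of 0.29 to 2.21, beside Cst7, Fabp5 and Lpl of the disease-associated list.

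Markers of other cells were present at uneven levels. B cell markers summed to 922 to 1074 CPM in GW-PBS and 1064 to 1162 CPM in Ctrl-PBS, most of it from Ighm, the immunoglobulin M heavy chain. Neutrophil markers had a median log2 fold change of -3.59 over 19 genes, or 3.98 without Ctrl-PBS replicate 3. With all libraries 8 of the 19 were lower at an unadjusted p under 0.05, beside 2.22% of all genes. Ngp, a neutrophil granule protein, had 671, 105, 13.7 and 0 CPM in GW-PBS, against 19.8, 17.3, 8913 and 7.13 CPM in Ctrl-PBS. Elane, neutrophil elastase, had 1.71, 0.323, 4.84 and 0 CPM in GW-PBS, against 0, 0, 446 and 0 CPM in Ctrl-PBS. The sort kept CD45mid and CD11a- cells, a gate that leaves out neutrophils, and in both genes Ctrl-PBS replicate 3 alone was high among the controls. Monocyte markers followed, at 149, 86.1, 54.3 and 11.6 CPM in GW-PBS replicates 1 to 4, against 27.0, 18.3, 1947 and 46.2 CPM in Ctrl-PBS. Border-associated macrophage markers summed to 269 to 400.4 CPM in GW-PBS and 340.3 to 433 CPM in Ctrl-PBS, and neuronal markers to 7.03 to 11.9 CPM in GW-PBS and 8.35 to 16.1 CPM in Ctrl-PBS.

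The exposure difference was set beside that under LPS, in GW-LPS over Ctrl-LPS, which shares no library with GW-PBS over Ctrl-PBS. There too edgeR called 0 of 16554 genes (0%), with 2267 (13.7%) at an unadjusted p under 0.05, and DESeq2 called 147 and limma voom 324. In the disease-associated list 26 of 26 genes had a log2 fold change above 0 without LPS, with a median of 0.48, whereas 21 of 26 lay below 0 under LPS, with a median of -0.32. The interaction, the difference under LPS minus that without it, was negative in 26 of 26 genes with a median of -0.84, beside 0.01 over all genes. For 16 genes its unadjusted p was under 0.05, beside 8.28% of all genes, and none passed after adjustment over all genes (edgeR, smallest adjusted p = 0.211 of any gene). Over all genes the interaction had 0 calls in edgeR (0%), 2099 (12.7%) at an unadjusted p under 0.05, 59 calls in DESeq2 and 111 in limma voom. The interaction uses the same GW-PBS and Ctrl-PBS libraries, so a high list level in GW-PBS enters it directly. Other lists also had a negative interaction. Cytosolic ribosomal protein genes had a median of -0.92, with 60 of 80 negative at an unadjusted p under 0.05, beside 8.28% of all genes. Those counts were 14 of 23 for antigen presentation and 13 of 46 for oxidative phosphorylation, with medians of -0.68 and -0.64. Without LPS, the ribosomal and oxidative phosphorylation lists moved with GW-PBS replicate 1. For Apoe the log2 fold change was 0.75 without LPS and -1.03 under LPS, and for Cst7 1.11 and -1.06.

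Interferon-responsive genes lay near the median of all genes without LPS and below it with LPS. The median log2 fold change of the 36 genes was 0.09 without LPS and -0.94 under LPS, where 24 had an unadjusted p under 0.05 with a lower level in GW-LPS, beside 7.45% of all genes. Their interaction had a median of -1.16, and 22 were negative at an unadjusted p under 0.05, beside 8.28% of all genes. Ifit3 had a log2 fold change of 0.00 ± 0.30 without LPS and -1.35 ± 0.33 under LPS. Homeostatic genes had a median log2 fold change of 0.02 without LPS and 0.14 under LPS, and their interaction a median of 0.10.

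**Figure D5:**
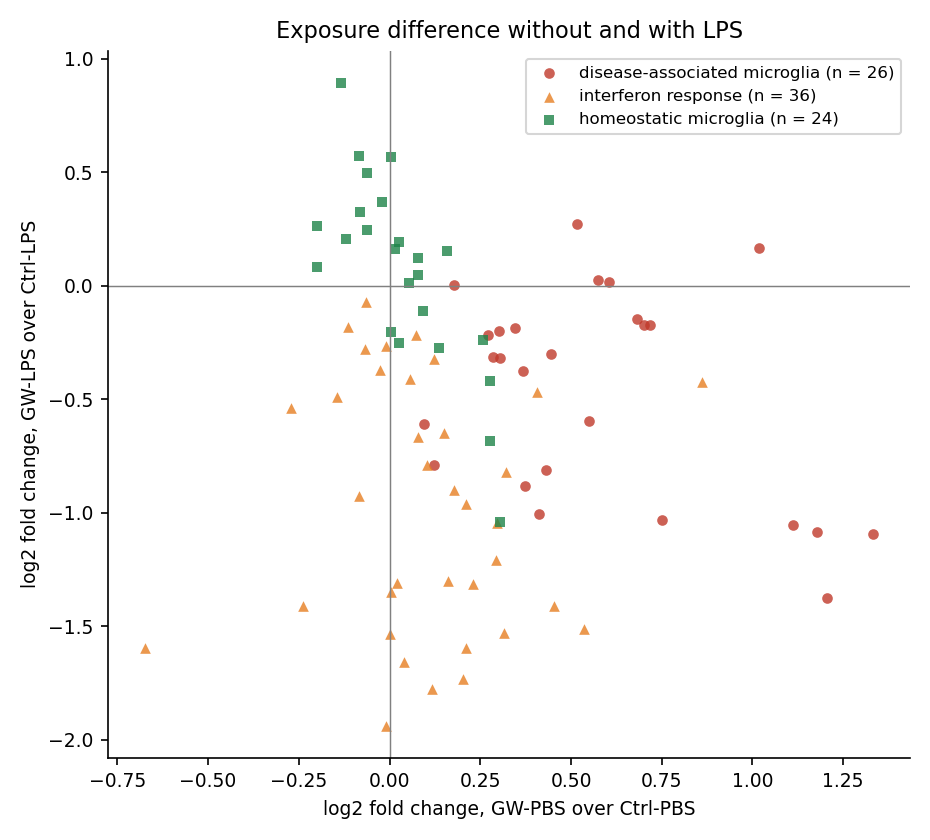
Log2 fold change under LPS (GW-LPS over Ctrl-LPS) against that without LPS (GW-PBS over Ctrl-PBS) for the genes of 3 lists. The 26 disease-associated genes all lie right of 0 and 21 of them below 0, and the interferon-responsive genes spread around 0 on the horizontal axis and lie below 0 on the vertical one.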

How the data were processed

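Poly(A) RNA of sorted microglia was measured in 22 libraries, of which 8 are compared here (GW-PBS and Ctrl-PBS, n = 4 each), with 31987884 to 37517783 counts each. The deposited table holds whole-number counts of reads per gene for 54532 genes, aligned to GRCm38 (mm10) per the labels' protocols and the submitters' processing notes. How reads were aligned and counted, and whether strand was used, is not given in the sources used here, and antisense or overlapping genes cannot be told apart. Symbols turned into dates were restored from identifiers (27 genes), and coordinates are from GENCODE M21.

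The test was edgeR 4.0.16 in R 4.3.3 (two-sided quasi-likelihood test, TMM factors, filterByExpr, 6 group means over all 22 libraries, Benjamini-Hochberg adjustment over 16554 genes, threshold 0.05, biological coefficient of variation 0.35). An unadjusted p is from this test and only describes. Every value after ± is a standard error of a log2 fold change from it. CPM of single genes use TMM factors, and summed CPM of lists use library totals.

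The members and gene lists were chosen with earlier results of these data known. Genes named outside the lists are the 12 with the smallest p in each direction at 5 CPM or over in the higher group, without predicted genes or pseudogenes. To these come 2 genes of smallest p per list, 1 marker of highest level per cell type and 14 index genes such as Apoe and P2ry12. Not all are printed, some are not reported here, and other list members were named after their values were seen. Replicate numbers come from the library names. The log2 deviations of same-numbered GW-PBS and Ctrl-PBS libraries correlated at -0.146, -0.285, -0.006 and 0.108, so the numbers were not used as pairs. Alternatives were RLE size factors, no filter, DESeq2 1.42.0, voom with quality weights (limma 3.58.1), the compared groups alone, a replicate block and each library left out. Added once the data had been seen were fits that left out the 3 neutrophil-rich libraries (Ctrl-PBS replicate 3, GW-PBS replicate 1 and a Ctrl-LPS library) and with the neutrophil or ribosomal protein sum as a covariate. The scripts were tested on simulated data. Figures were drawn with matplotlib 3.10.9.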

Additional observations from a re-analysis of the deposited data

Results flagged for a closer look

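A library that stood far from the other 3 of its group was looked for in 148 groups of 4 values, gene levels and summed list levels of GW-PBS and Ctrl-PBS, and 20 were found. Chance alone gives about 1 in 20 groups for independent, normally distributed values chosen beforehand. Some of these genes were named after their values were seen, and some are part of the list sums. The 20 found can therefore not be set against that rate. Of the 20, 10 were Ctrl-PBS replicate 3.

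Ctrl-PBS replicate 3 had a summed 1033 CPM of cell cycle genes, against 387 to 489.9 CPM in the other Ctrl-PBS libraries. It also had 4566 CPM of glucocorticoid receptor targets (others 2074 to 2494), 5847 CPM of glycolysis genes (others 4097 to 4233), 30110 CPM of neutrophil markers (others 546 to 694), 1947 CPM of monocyte markers (others 18.3 to 46.2) and 31.0 CPM of T and NK cell markers (others 3.69 to 5.75). Single genes that were high in the same library were Elane at 446 CPM (0 in the others), Ngp at 8913 CPM (others 7.13 to 19.8), Slc2a3 at 97.5 CPM (others 6.85 to 9.30) and Il1b at 300.4 CPM (others 43.8 to 66.9).

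In GW-PBS, replicate 3 was high for Lpl at 487 CPM (others 154 to 201) and Gpnmb at 140.4 CPM (others 25.9 to 35.4), and low for Tmem119 at 5884 CPM (others 6595 to 6664). GW-PBS replicate 1 was high for Ccl4 at 1128 CPM (others 569.7 to 652) and Ngp at 671 CPM (others 0 to 105). GW-PBS replicate 2 had 11.3 CPM of T and NK cell markers (others 2.85 to 3.73), and GW-PBS replicate 4 had 503 CPM of choroid plexus and ependymal markers (others 27.5 to 94.1). In Ctrl-PBS, replicate 4 was low for Rsph3a at 6.57 CPM (others 8.48 to 8.68) and high for Ptgds at 165 CPM (others 13.1 to 38.5). Replicate 1 of Ctrl-PBS was high for Sgk1 at 678 CPM (others 633 to 638).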

How the results depend on the processing

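The count of genes called between GW-PBS and Ctrl-PBS was 0 under each of the alternatives run, in which the lowest adjusted p of a named gene was 0.0631. Of 88 named genes 72 kept the direction of their log2 fold change under all alternatives, and of 34 medians, those of the 33 lists and of all genes, 12. Genes at an unadjusted p under 0.05 (621) numbered 1311 with no filter on low counts, 1241 with voom, 361 with the compared groups alone and 961 with the ribosomal sum as a covariate, and 479 to 1068 with 1 library left out. With RLE size factors 200 were higher and 407 lower in GW-PBS, beside 253 and 368. The replicate block, fitted on the compared groups alone, gave 203 beside 361 in those groups with no block, and 10 disease-associated genes beside 12. The replicate numbers were not used as pairs in the main test.

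Disease-associated genes at an unadjusted p under 0.05 numbered 5 to 19 with 1 library left out. The 5 were without GW-PBS replicate 3, where 247 of all genes were higher in GW-PBS at that p. The 19 were without GW-PBS replicate 2, where 541 were. Those whose groups do not overlap (5) numbered 5 to 12 with 1 left out and 12 when the 3 neutrophil-rich libraries were left out, where the count over all genes was 1257 beside 342. With 1 of the 8 left out that count was 600 to 1002. Fewer libraries overlap less often.

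For GW-LPS over Ctrl-LPS, calls (0) numbered 5 with no filter, 147 with DESeq2, 324 with voom, and 0 to 75 with 1 library left out, the 75 without Ctrl-LPS replicate 3. Interaction calls (0) numbered 59 with DESeq2, 111 with voom and 0 to 13 with 1 left out. The cause was not tested. With 4 libraries a group, precision is limited below 1 CPM, where 1.88% of genes had an interval that left out a 2-fold difference.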
